A study of Mus musculus with 2 samples.

Results

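Cardiac neural crest cells of the mouse embryo were examined for the genes through which cells send, receive and adjust Wnt signals. The genes were taken by symbol, as every measured gene of the Wnt, Frizzled (Fzd), secreted Frizzled-related protein (Sfrp), Dickkopf (Dkk) and R-spondin (Rspo) families, together with the co-receptor genes Lrp5 and Lrp6, the receptor genes Ror1 and Ror2, and Axin2, Lef1 and Tcf7. The rule uses symbols and no measured value, though it was written with earlier results of these data known. It names 48 genes, of which 47 were measured, among 19938 genes in all, and Tcf7 is not analysed here. The 47 are 19 Wnt ligands, 10 Frizzled receptors, 2 Lrp co-receptors, 2 Ror receptors, 4 R-spondins, 4 Sfrp genes, 4 Dickkopf genes, Axin2 and Lef1.

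Wnt proteins are secreted lipid-modified signals. Bound to a Frizzled receptor and an LRP co-receptor, they stop the breakdown of beta-catenin, which then enters the nucleus and works with factors such as LEF1 on target genes such as Axin2. Bound to Frizzled and ROR receptors they act without beta-catenin, on cell polarity and movement. In the mouse, Wnt signals help to expand the neural crest, and Wnt5a and Wnt11 are needed to shape the outflow tract of the heart, to which cardiac neural crest cells contribute.

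The Adam19-/- sample came from Adam19-/-; Wnt1-Cre; R26tdTomato/+ embryos and the Adam19+/+ sample from Adam19+/+; Wnt1-Cre; R26tdTomato/+ embryos, both on a C57BL/6 background and at E14.5. Both therefore carry the Cre driver named for Wnt1, which marks descendants of cells where that driver was active, and 1 tdTomato reporter allele. Hearts were dissociated with collagenase, and red-fluorescent cells were sorted. Each genotype had 1 Affymetrix Mouse Gene 1.0 ST array, and the sources used here do not give the number of embryos behind a sample. Every difference below is thus that between 2 samples, with no replicate, no error and no test across samples.

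Values are the authors' log2 signals, and a difference is the log2 signal of Adam19-/- minus that of Adam19+/+. The targeted gene Adam19 was at 9.77 in Adam19-/- cells, against 11.62 in Adam19+/+ cells, the direction of the labels. The sources used here do not say which part of the gene the cluster's probes cover. The Adam19-/- array had a median cluster signal of 7.52, and the Adam19+/+ array one of 7.49. A signal of 8.01 served as expression floor. It is the median over genes of their mean signal, a middle level and not a limit of detection, and 10122 genes had at least 1 array above it. Their differences had a median of 0.04 and a central 95% from -0.20 to 0.30. In 583 genes with at least 2 clusters above the floor, the differences of 2 clusters of one gene lay a median of 0.05 apart, with a 95th percentile of 0.24. That gap is a measure of disagreement within these arrays and holds no variation between embryos. Markers were listed for cell types that neural crest descendants form in the heart. Of those measured, 8 of 8 smooth muscle and 9 of 9 valve and outflow mesenchyme genes were above the floor. So were 6 of 6 glial, 7 of 7 autonomic neuron and 5 of 7 melanocyte genes. Markers of cells outside the crest also passed it, in 10 of 12 cardiomyocyte and 7 of 10 endothelial genes. So did 4 of 12 macrophage and leukocyte, 2 of 7 epicardial and 2 of 4 erythroid genes. Of all 19938 measured genes, 10122 passed it. As whole sorted samples were measured, fewer cells of a type and less RNA per cell cannot be told apart.

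Differences of the Wnt genes between the genotypes were small. Of the 47 genes, 26 had at least 1 array above the floor, 24 of them on both arrays, Fzd9 on the Adam19-/- array alone and Wnt9a on the Adam19+/+ array alone. Among the 26, 21 (80.8%) were higher in Adam19-/- cells and 5 were lower, whereas of all genes above the floor 65.2% were higher and 33.7% lower. The median difference of the 26 was 0.09, against 0.04 for all genes above the floor. Fzd6, Fzd9 and Rspo2 were at least 1.2-fold higher, or 3 of 26 (11.5%), where 4.06% of all genes above the floor were. Fzd9 entered the 26 through its Adam19-/- array alone, and of the 24 members above the floor on both arrays 2 (8.33%) were at least 1.2-fold higher and none lower, where 3.57% and 0.997% of all such genes were. None of the 26 was at least 1.2-fold lower, where 1.13% of all genes above the floor were. The 1.2-fold cut was chosen with the members' differences known, as no member reached 1.5-fold. After differences were centred on a lowess curve over signal, 2.11% of all genes above the floor were at least 1.2-fold higher and 2.09% at least 1.2-fold lower, and of the 26 only Fzd6 was still at least 1.2-fold higher.

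Over all 47 measured genes, 30 (63.8%) were higher in Adam19-/- cells, 9 were lower and 8 were exactly equal, and the median difference was 0.06. All measured genes had a median of 0.01, with 51.7% of them higher, 34.1% lower and 14.2% equal. At least 1.2-fold higher were 4 of 47 genes (8.51%), Dkk1 besides the 3 above, against 5.07% of all measured genes. Wnt4 alone was at least 1.2-fold lower (2.13%), against 2.02% of all measured genes. No member reached 1.5-fold in either direction, a size reached upward by 0.155% and downward by 0.0552% of all measured genes. Among the 26 members above the floor, Fzd6, Fzd9, Rspo2 and Ror2 (15.4%) had absolute differences larger than 0.24, the 95th percentile of the gap between clusters of one gene, as had 7.02% of all genes above the floor. Fzd9 is counted there although only its Adam19-/- array was above the floor, so its place in that share depends on its increase.

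**Figure D1:**
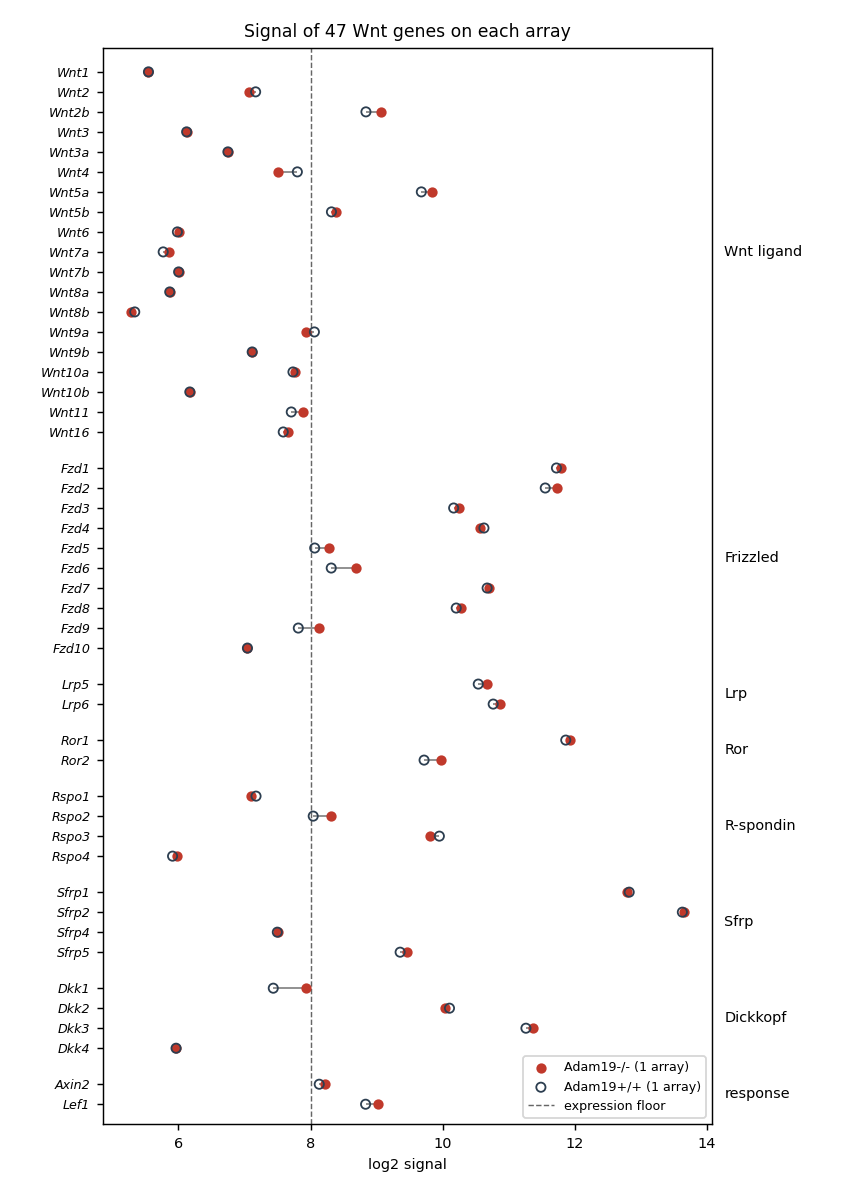
Log2 signal (horizontal axis) of the 47 Wnt genes, grouped by role, on the Adam19-/- array (filled red) and the Adam19+/+ array (open), with a dashed line at the floor of 8.01. The pairs of points nearly coincide for most genes, and the widest gap is that of Dkk1, at 7.93 in Adam19-/- and 7.43 in Adam19+/+ cells.

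Most Wnt ligand genes gave signals under the floor. Of the 19 ligands, 4 had an array above it, namely Wnt2b, Wnt5a, Wnt5b and Wnt9a. Wnt5a, the best studied ligand of beta-catenin-independent signalling, was at 9.83 in Adam19-/- cells, against 9.68 in Adam19+/+ cells (difference 0.15). Its close relative Wnt5b was at 8.38 in Adam19-/- cells, against 8.32 in Adam19+/+ cells (difference 0.07). Both differences lay inside the central 95% of genes above the floor. Wnt2b, a ligand that can act through beta-catenin, was at 9.07 in Adam19-/- cells, against 8.84 in Adam19+/+ cells (difference 0.23, 1.17-fold). It had the largest increase among the ligands, and 618 genes above the floor had a larger one. Wnt9a, which acts in the forming joints of the mouse limb, was at 7.93 in Adam19-/- cells, against 8.06 in Adam19+/+ cells (difference -0.13). Wnt9a and the neighbouring Wnt3a lie on chromosome 11, as does Adam19, with 187 and 186 measured genes between each of them and Adam19 in the gene table.

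Among the 15 ligands under the floor on both arrays, Wnt4, a ligand of kidney and gonad development, had the largest difference. It was at 7.51 in Adam19-/- cells, against 7.80 in Adam19+/+ cells (difference -0.29, 1.23-fold lower). Its second, dimmer cluster was at 6.81 in Adam19-/- cells, against 6.97 in Adam19+/+ cells (difference -0.17), so both clusters were lower but the second by under 1.2-fold. The mean of the clusters, at -0.23, did not reach 1.2-fold either, and 2.94% of genes under the floor were lower by at least that fold. Wnt11, a ligand of convergent cell movements, was at 7.88 in Adam19-/- cells, against 7.71 in Adam19+/+ cells (difference 0.17). The remaining 13 ran from -0.10 in Wnt2 to 0.09 in Wnt7a.

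The values of 6 ligands, Wnt1, Wnt3, Wnt3a, Wnt8a, Wnt9b and Wnt10b, were exactly equal on the arrays. Fzd10 and Dkk4 were equal as well, so that 8 of the 21 members under the floor (38.1%) had equal values, where 27.7% of all genes under it did. Wnt1, the gene whose regulatory elements drive the Cre used in both samples, was at 5.55 on both arrays. The sources used here do not say how the processing gave equal values, and for these genes the arrays held no measured difference.

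The Frizzled receptor genes were measured mostly above the floor and were mostly higher in Adam19-/- cells, as were 65.2% of all genes above the floor. With Fzd10 under it at 7.04 on both arrays, 9 of 10 had an array above it, and 8 of those were higher, Fzd9 among them with only its Adam19-/- array above the floor, and Fzd4 was lower. Their median difference was 0.08, against 0.04 for all genes above the floor. When differences were centred on the median of all genes, Fzd7 was at -0.01 and the other 7 stayed higher. Fzd6, a receptor that orients hairs and hair cells through planar cell polarity, was at 8.69 in Adam19-/- cells and 8.31 in Adam19+/+ cells. This was a difference of 0.38 or 1.30-fold, and 113 genes above the floor had a larger increase. Fzd3, which acts with Fzd6 in the mouse inner ear and neural tube, was at 10.24 in Adam19-/- cells, against 10.17 in Adam19+/+ cells (difference 0.08).

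Fzd9 was at 8.12 in Adam19-/- cells, against 7.81 in Adam19+/+ cells (difference 0.31, 1.24-fold). It crossed the floor only where it was higher, so its place among the 26 depends on that difference. Fzd5, a receptor of eye and yolk sac development, was at 8.27 in Adam19-/- cells, against 8.06 in Adam19+/+ cells (difference 0.21). The related Fzd8 was at 10.28 in Adam19-/- cells, against 10.20 in Adam19+/+ cells (difference 0.07). Fzd1, Fzd2 and Fzd7 form a subfamily of closely related receptors, and in the mouse Fzd1 and Fzd2 act together in closing the palate and the ventricular septum. Fzd2 was at 11.73 in Adam19-/- cells, against 11.55 in Adam19+/+ cells (difference 0.18). Fzd1 was at 11.79 in Adam19-/- cells, against 11.72 in Adam19+/+ cells (difference 0.07). Fzd7 was at 10.71 in Adam19-/- cells, against 10.67 in Adam19+/+ cells (difference 0.03), so the subfamily differed in size of change, and Fzd7 lay just below the median of 0.04 of genes above the floor. Fzd4, the receptor of norrin in the retinal vessels, was at 10.56 in Adam19-/- cells, against 10.62 in Adam19+/+ cells (difference -0.06).

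**Figure D2:**
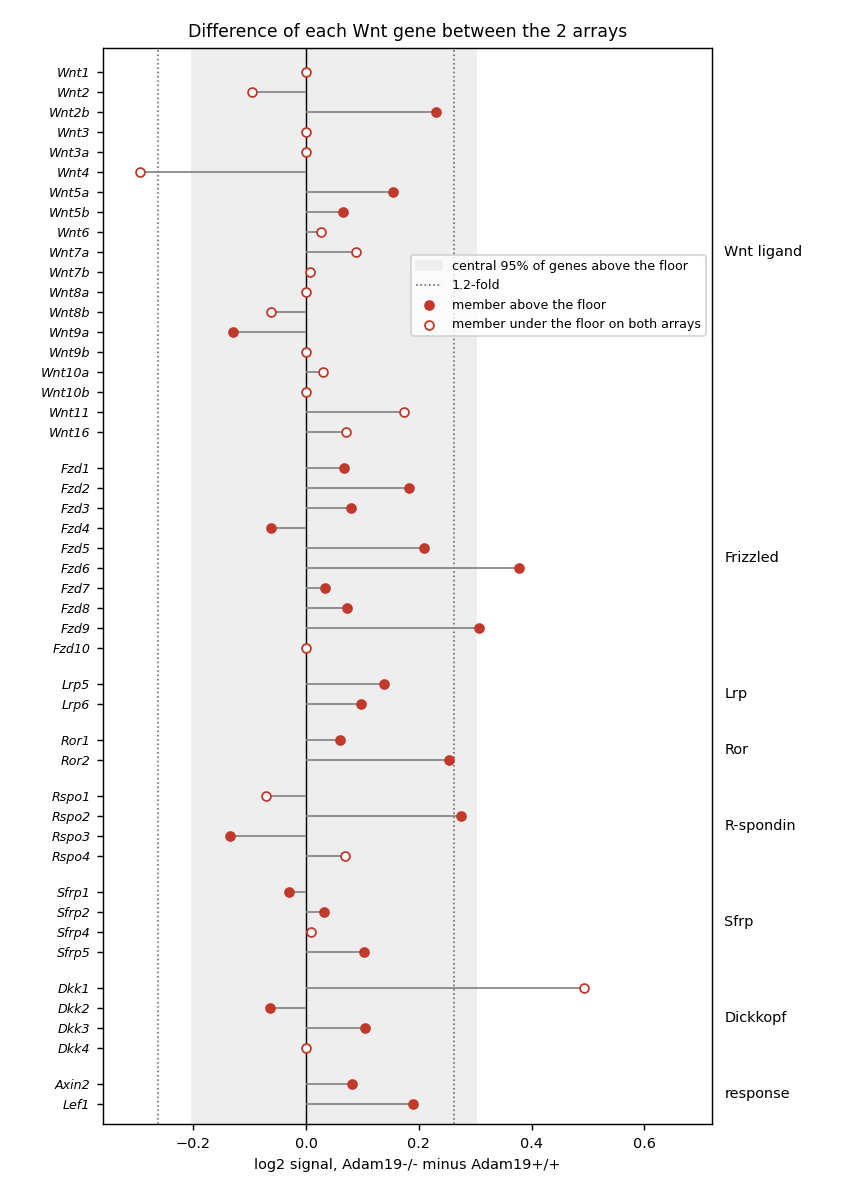
Difference in log2 signal, Adam19-/- minus Adam19+/+ (horizontal axis), of each Wnt gene, with filled points above the floor and open points under it on both arrays. The grey band is the central 95% of genes above the floor, and only Dkk1, Fzd6, Fzd9 and Wnt4 lie outside it.

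Both LRP co-receptor genes and both ROR receptor genes were above the floor on both arrays and higher in Adam19-/- cells. Lrp6, the co-receptor most needed for beta-catenin signalling in the embryo, was at 10.86 in Adam19-/- cells, against 10.76 in Adam19+/+ cells (difference 0.10). Lrp5, known for its part in bone mass, was at 10.68 in Adam19-/- cells, against 10.54 in Adam19+/+ cells (difference 0.14). Neither difference exceeded the 95th percentile of the gap between clusters of one gene. Ror2, a receptor of Wnt5a, was at 9.97 in Adam19-/- cells, against 9.72 in Adam19+/+ cells (difference 0.25, 1.19-fold), just under 1.2-fold. Ror1 was at 11.92 in Adam19-/- cells, against 11.86 in Adam19+/+ cells (difference 0.06). Of the ligand Wnt5a and these receptors, Ror2 alone thus lay past the 95th percentile of the cluster gap, and it was inside the central 95% of genes above the floor.

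The R-spondin genes, whose proteins bind LGR receptors and shield Frizzled from removal by the ligases ZNRF3 and RNF43, differed in opposite directions. Rspo2, which acts in the limb and lung, was at 8.31 in Adam19-/- cells, against 8.04 in Adam19+/+ cells (difference 0.27, 1.21-fold). Rspo3, which acts in placental and vascular development, was at 9.81 in Adam19-/- cells, against 9.95 in Adam19+/+ cells (difference -0.14). Rspo2 was higher than 1.2-fold as deposited but not after quantile normalisation, at 0.24, nor under the 2 centrings or with 32 added to the linear signal. Rspo1 and Rspo4 were under the floor, with differences of -0.07 and 0.07.

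The secreted Frizzled-related proteins, which bind Wnt ligands outside the cell, differed little. Sfrp2 was at 13.66 in Adam19-/- cells, against 13.63 in Adam19+/+ cells (difference 0.03). Sfrp1 was at 12.79 in Adam19-/- cells, against 12.82 in Adam19+/+ cells (difference -0.03). Both lay within the median gap between clusters of a gene, and their signs did not hold, since centring on the median gave -0.01 for Sfrp2 and quantile normalisation gave 0.00, just above equality, for Sfrp1. Sfrp5, which is close to Sfrp1 and Sfrp2 in sequence, was at 9.46 in Adam19-/- cells, against 9.36 in Adam19+/+ cells (difference 0.10). Sfrp4 was under the floor at 7.51 in Adam19-/- cells and 7.50 in Adam19+/+ cells.

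Among the Dickkopf genes, Dkk1 had the largest difference of all 47 members. It encodes a secreted inhibitor that binds LRP5 and LRP6, and is itself a target of beta-catenin signalling. Dkk1 was at 7.93 in Adam19-/- cells, against 7.43 in Adam19+/+ cells (difference 0.49, 1.41-fold), and 91 of the 19938 measured genes had a larger increase. Both values were under the floor, where 6.1% of genes were at least 1.2-fold higher. Dkk2, another ligand of LRP5 and LRP6, was at 10.04 in Adam19-/- cells, against 10.10 in Adam19+/+ cells (difference -0.06). Dkk3, a divergent family member, was at 11.36 in Adam19-/- cells, against 11.26 in Adam19+/+ cells (difference 0.11). Dkk4 was at 5.96 on both arrays, so the 4 members showed no shared direction.

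Axin2 and Lef1, which report on the beta-catenin branch, were slightly higher in Adam19-/- cells. Of all genes above the floor 65.2% were higher, with a median difference of 0.04. Axin2, a scaffold of the destruction complex that beta-catenin signalling induces as a feedback inhibitor, was at 8.21 in Adam19-/- cells, against 8.13 in Adam19+/+ cells (difference 0.08). Lef1, the nuclear partner of beta-catenin and in many tissues also its target, was at 9.02 in Adam19-/- cells, against 8.83 in Adam19+/+ cells (difference 0.19, 1.14-fold). Both differences were inside the central 95% of genes above the floor, and 1006 genes there had a larger increase than Lef1. After centring on a lowess curve, Axin2 was at 0.02 and Lef1 at 0.13.

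**Figure D3:**
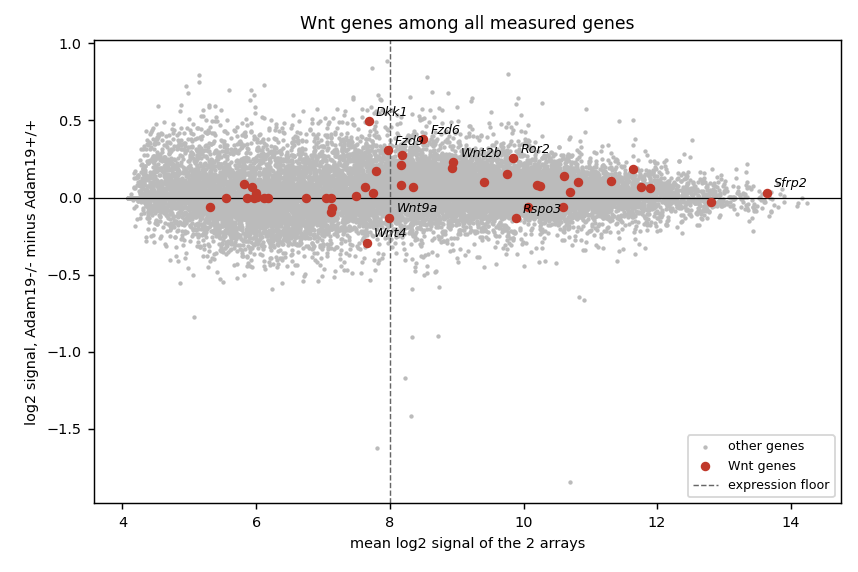
Difference in log2 signal, Adam19-/- minus Adam19+/+ (vertical axis), against the mean log2 signal of both arrays (horizontal axis), for all 19938 genes (grey) and the 47 Wnt genes (red). The Wnt genes lie within the cloud of other genes, and the 5 with the largest increases, Dkk1, Fzd6, Fzd9, Rspo2 and Ror2, have signals under 10.

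The start regions of the genes were searched for CTTTGAT and CTTTGAA, forms of the sequence that factors of the TCF and LEF family bind. Other forms, such as the ctttgtt in the window of Dkk1, were not searched for and are not marked. The aim was to set the promoter of Dkk1 beside that of Axin2 and of the ligands that hold a match. RefSeq windows of 300 bases, from 250 before to 50 after a start, were at hand for 31 of the 47 measured genes on build GRCm38.p6, in 39 windows with those of Tcf7. Either CTTTGAT or CTTTGAA, on either strand, was present in 3 of the 39 windows (7.69%), against 8.65% of the 32851 windows of all genes. Matches were in the windows of Dkk1, Wnt11 and Wnt5b, and capitals mark them below. The window of Dkk1 is on the minus strand at chr19:30549447-30549746, that of Wnt11 on the plus strand at chr7:98834862-98835161, the matching one of Wnt5b on the minus strand at chr6:119449337-119449636, and that of Axin2, which holds no match, on the plus strand at chr11:108920099-108920398. Each is written 5′ to 3′ along its gene.
Dkk1: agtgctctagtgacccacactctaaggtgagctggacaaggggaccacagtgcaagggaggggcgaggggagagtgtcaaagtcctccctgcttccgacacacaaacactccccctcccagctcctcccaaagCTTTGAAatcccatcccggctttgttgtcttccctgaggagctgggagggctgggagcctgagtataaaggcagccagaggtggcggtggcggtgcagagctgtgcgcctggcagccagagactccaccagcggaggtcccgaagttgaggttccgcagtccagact
Wnt11: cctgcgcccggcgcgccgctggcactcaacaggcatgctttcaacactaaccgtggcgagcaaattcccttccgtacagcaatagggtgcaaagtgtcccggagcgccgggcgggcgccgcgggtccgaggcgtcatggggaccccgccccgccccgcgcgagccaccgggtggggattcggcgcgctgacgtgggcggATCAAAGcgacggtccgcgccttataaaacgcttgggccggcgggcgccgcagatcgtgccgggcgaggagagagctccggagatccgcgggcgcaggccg
Wnt5b: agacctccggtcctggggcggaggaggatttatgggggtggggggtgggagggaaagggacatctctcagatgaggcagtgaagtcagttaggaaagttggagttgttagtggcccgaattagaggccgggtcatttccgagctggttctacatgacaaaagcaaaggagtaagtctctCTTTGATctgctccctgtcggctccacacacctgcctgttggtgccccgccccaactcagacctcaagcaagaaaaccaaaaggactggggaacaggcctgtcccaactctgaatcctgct
Axin2: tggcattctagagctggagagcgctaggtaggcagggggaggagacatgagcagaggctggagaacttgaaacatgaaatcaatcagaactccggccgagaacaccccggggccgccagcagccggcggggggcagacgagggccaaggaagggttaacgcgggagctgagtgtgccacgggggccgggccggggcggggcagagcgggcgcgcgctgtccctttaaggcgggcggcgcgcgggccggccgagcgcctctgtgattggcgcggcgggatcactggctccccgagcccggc

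The match in Dkk1 is CTTTGAA on the strand of the gene and begins at position -117 from the start. The match in Wnt5b is CTTTGAT on the strand of the gene, at position -71. In Wnt11 it is CTTTGAT on the opposite strand, shown as its reverse complement, at position -51. The 3 genes had differences of 0.49, 0.07 and 0.17 in the order Dkk1, Wnt5b and Wnt11, and Dkk1 and Wnt11 were under the floor on both arrays. Measured members with windows but no match had differences from -0.29 in Wnt4 to 0.31 in Fzd9. Whether a match bears on a difference was not tested. Wnt11 and Wnt5b each have further listed starts without a match, and the arrays do not tell which start was used.

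Further genes of the pathway, on 4 lists with 93 distinct measured genes, were set beside these values, and 79 of the 93 were above the floor. Of the 79, 49 had a higher signal in Adam19-/- cells, 29 a lower and 1 an equal one, and their median difference was 0.03. Of all genes above the floor 65.2% were higher, with a median of 0.04, so these counts were close to those of genes in general. At least 1.2-fold higher were 2 of the 79 and at least 1.2-fold lower were 3, where 4.06% and 1.13% of all genes above the floor were. Among 15 genes of Wnt secretion and other extracellular modulators above the floor, 9 had a positive and 6 a negative difference, and the median was 0.04. Sost, which encodes the LRP-binding antagonist sclerostin, was at 8.43 in Adam19-/- cells, against 8.91 in Adam19+/+ cells (difference -0.48). Lgr6, an R-spondin receptor, was at 9.94 in Adam19-/- cells, against 10.30 in Adam19+/+ cells (difference -0.36). Trabd2b, a protease that cleaves Wnt ligands, was at a difference of -0.27, and Cthrc1, a secreted cofactor of Wnt and ROR2, at 0.23. The 3 largest differences above the floor on this list were thus all lower in Adam19-/- cells, while 9 of the 15 genes were higher. These 3 of 15 were at least 1.2-fold lower and 0 were at least 1.2-fold higher, beside 1.13% and 4.06% of all genes above the floor.

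The 27 genes of the destruction complex and beta-catenin transduction were all above the floor. Of these, 20 had a higher signal in Adam19-/- cells, 6 a lower and 1 an equal one, around a median difference of 0.03, beside 65.2% higher and a median of 0.04 among all genes above the floor. Their differences ran from -0.10 to 0.23, and none reached 1.2-fold. Ctnnbip1, an inhibitor that keeps beta-catenin from TCF factors, had the largest difference at 0.23, followed by the TCF family member Tcf7l2, the kinase gene Csnk1d and Dvl2, which relays the Frizzled signal, each at 0.10. Among 24 genes of planar polarity and other non-canonical signalling above the floor, 13 had a positive and 11 a negative difference, and the median was 0.02. Celsr1, an adhesion receptor of the polarity complex, was at a difference of -0.19 and Vangl2, its membrane partner, at 0.15. Nfatc4, a calcium-regulated transcription factor, was at 0.18, and Daam1, a formin downstream of Dishevelled, at -0.15.

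Among 16 beta-catenin response genes above the floor, 9 had a positive and 7 a negative difference, and the median was 0.01. Of all genes above the floor 65.2% were higher, and their median was 0.04. At least 1.2-fold higher were 2 of the 16 and at least 1.2-fold lower 0, beside 4.06% and 1.13% of all genes above the floor. Twist1, a mesenchymal transcription factor, was at 9.45 in Adam19-/- cells, against 9.05 in Adam19+/+ cells (difference 0.40). Gja1, which encodes connexin 43, was at a difference of 0.27, Ccn4, a matricellular protein, at -0.23 and the hyaluronan receptor gene Cd44 at 0.15. These response genes had no shared direction on the arrays.

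**Figure D4:**
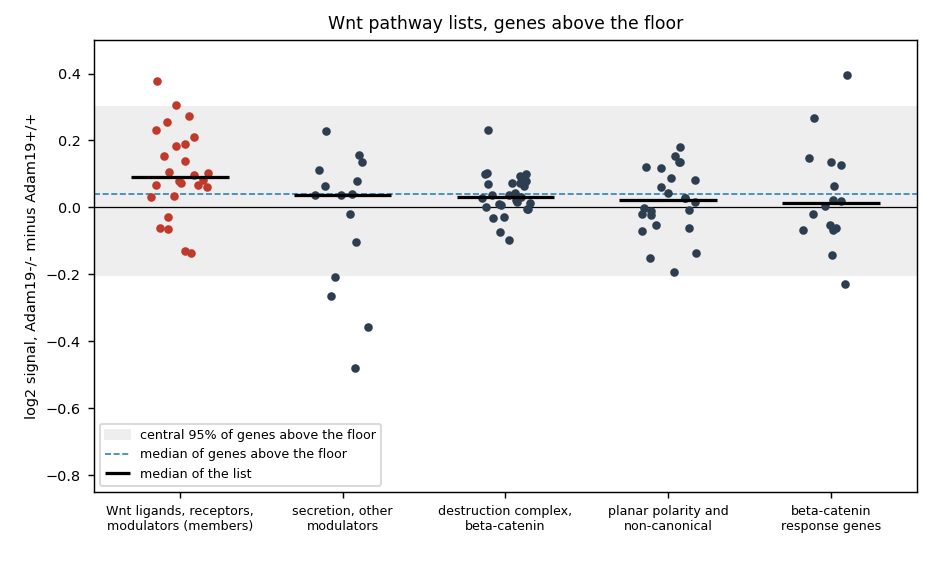
Difference in log2 signal, Adam19-/- minus Adam19+/+ (vertical axis), of each gene above the floor (points) in the 26 Wnt members and in 4 lists of other Wnt pathway genes, with black bars at each list's median. The bar of the Wnt members lies at 0.09 and those of the 4 lists between 0.01 and 0.04, beside a dashed line at 0.04 for all genes above the floor.

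Markers of cell types moved between the samples as well, and their part in the differences of the Wnt genes was not tested. The counts below cover all measured markers, above the floor or not, and of all measured genes 51.7% were higher in the Adam19-/- sample and 34.1% lower. Each of the 12 measured markers of macrophages and leukocytes had a higher signal in the Adam19-/- sample, with summed linear signals of 2954 in Adam19-/- and 2230 in Adam19+/+ cells, though only 4 were above the floor. Cardiomyocyte markers were higher in 9 of 12 cases, with sums of 7023 in Adam19-/- and 6419 in Adam19+/+ cells. Endothelial and endocardial markers were higher in 6 of 10, with sums of 5232 in Adam19-/- and 5114 in Adam19+/+ cells. Epicardial markers were higher in 4 of 7 cases, with sums of 2277 and 2032 in Adam19-/- and Adam19+/+ cells, and erythroid markers in 3 of 4, with 2910 and 2419. All 5 of these sums were higher in the Adam19-/- sample. Genes above the floor were themselves shifted upward there, with 65.2% higher and a median difference of 0.04. No sum here or below was corrected for that shift. A linear sum also weighs the brightest genes most, such as Tbx18 among the epicardial markers, at 10.40 in Adam19-/- and 10.19 in Adam19+/+ cells. The epicardial markers Wt1 and Msln were equal on both arrays. Among endothelial and endocardial markers above the floor, 4 of 7 were higher, and among cardiomyocyte markers above it 7 of 10. The cardiomyocyte gene Myh6 passed the floor on its Adam19-/- array alone, and the endothelial gene Emcn on its Adam19+/+ array alone. Of the macrophage genes above the floor, C1qb and Fcer1g passed it on their Adam19-/- array alone. The places of these genes in the counts above the floor thus depend on their differences.

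The remaining lists name cell types that neural crest descendants form, and do not tell whether the cells measured came from the crest. All 8 smooth muscle markers were lower in the Adam19-/- sample, with summed linear signals of 29807 in Adam19-/- and 32430 in Adam19+/+ cells. Glial markers were lower in 5 of 6 cases, with sums of 15723 in Adam19-/- and 17075 in Adam19+/+ cells. Valve and outflow mesenchyme markers were higher in 7 of 9, with sums of 31498 in Adam19-/- and 30151 in Adam19+/+ cells. Autonomic neuron markers were higher in 4 of 7, with sums of 15135 and 14311 in Adam19-/- and Adam19+/+ cells, and melanocyte markers in 3 of 7, with 3324 and 3430. No marker on any of these 10 lists was at the lowest value of the table.

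**Figure D5:**
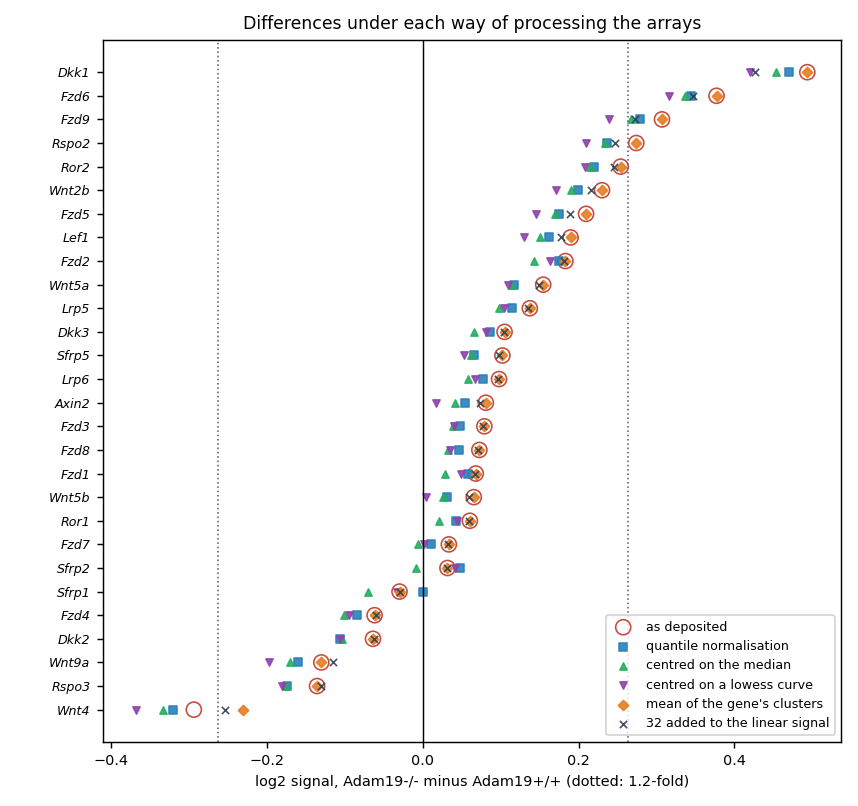
Difference in log2 signal, Adam19-/- minus Adam19+/+ (horizontal axis), of the 26 Wnt genes above the floor and of Dkk1 and Wnt4, as deposited and under 5 other ways of processing (symbols). Dkk1 and Fzd6 lie past 1.2-fold (dotted lines) under all 6, and Fzd7, Sfrp2 and Sfrp1 lie on both sides of 0.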

How the data were processed

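Biotin-labelled RNA of sorted cells was measured on 1 Affymetrix Mouse Gene 1.0 ST array per genotype. The authors deposited log2 signals of 28853 transcript clusters on 2 arrays. The log base was read from the range of the values, from 4.09 to 14.52. How background, normalisation and probe summary were handled is not stated in the labels, and values were used as deposited.

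Gene names came from the 2016 platform annotation, updated by Entrez identifier to the GRCm38.p6 RefSeq gene table. A single symbol was listed for 21789 clusters, several for 1621 and none for 5443, and 21698 of the first kind matched the table. The brightest cluster stood for a gene, which matters here for Wnt4 alone. The floor was the median of the genes' mean signal. With 1 array per genotype no p-value or error was computed, and 1.2-fold was used for counts, since no member reached 1.5-fold. The members, lists and thresholds were chosen with earlier results of these data known. By the rule for named genes, members above the floor or past 1.2-fold were given with levels, and up to 4 genes of each other list by size of difference. Alternatives changed the floor, the normalisation, the choice of cluster and an offset of 32 on the linear signal. Counting was tested on simulated data. The number of arrays limits the precision. Software was pandas 2.3.3 and numpy 2.4.6 under Python 3.11.15, with statsmodels 0.14.6 for lowess and matplotlib 3.10.9 for figures.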

Additional observations from a re-analysis of the deposited data

How the results depend on the processing

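The median difference of the Wnt genes above the floor, 0.09 as deposited, stayed positive under all 7 alternatives, between 0.05 and 0.09. It fell to 0.05 after centring on the median, where the median of all genes above the floor was 0. A move was counted from 0.05, the median gap between clusters of a gene, and this median moved by less. That cut is a gap between clusters on the same arrays and no measure of replicate spread. The count of members above the floor at least 1.2-fold higher, 3 as deposited, was 4 with no floor, 2 after quantile normalisation, centring on the median or adding 32 to the linear signal, 1 after centring on a lowess curve and 0 with a floor raised to the 75th percentile. The count at least 1.2-fold lower above the floor, 0 as deposited, was 1 with no floor. Over all 47 members, 4 were higher and 1 lower by 1.2-fold as deposited, 2 and 1 after the lowess centring, 4 and 0 with the mean of a gene's clusters, and 3 and 0 with 32 added. The split of all genes above the floor past 1.2-fold, 4.06% higher and 1.13% lower as deposited, was 2.68% and 1.58% after quantile normalisation, and 2.42% and 1.78% after centring on the median. Of the 26 members above the floor, 23 kept their sign under the 5 alternatives that recompute a difference, and Fzd7, Sfrp1 and Sfrp2 did not. Adding 32 to the linear signal cannot change a sign. The mean of a gene's clusters alters Wnt4 alone, which is not among the 26. The sign could thus change only under quantile normalisation and the centrings. The lowess centring moved 30 members by more than 0.05, and under the other 4 at most 1 member each did so. Centring on the median lowers every difference by 0.04, so it could move no member that far. The mean of a gene's clusters could move Wnt4 alone. No paired analysis was possible because each genotype had 1 array. With 1 array per genotype, variation between embryos, litters, dissections and hybridisations cannot be told apart from genotype.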

Other observations

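Genes of the Wnt pathway that were dim on both arrays, and so under the floor, included further large differences, named here after their values were seen. Lgr5, an R-spondin receptor and a beta-catenin target in several tissues, was at 7.99 in Adam19-/- cells, against 7.60 in Adam19+/+ cells (difference 0.39). Notum, a secreted enzyme that inactivates Wnt proteins and is induced by beta-catenin signalling, was at 7.25 in Adam19-/- cells, against 6.89 in Adam19+/+ cells (difference 0.36). Ccn5, a matricellular protein on the list of response genes, was at 7.44 in Adam19-/- cells, against 7.98 in Adam19+/+ cells (difference -0.54). The other 5 response genes under the floor ran from -0.08 in Sp8 to 0.03 in Rnf43. Dim genes with differences of either sign were common, as 6.1% of genes under the floor were at least 1.2-fold higher and 2.94% at least 1.2-fold lower.

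Several Wnt ligand genes are neighbours on their chromosome, with no measured gene between them in the gene table. Wnt3 and Wnt9b on chromosome 11 had exactly equal values on both arrays, and so had Wnt1 and Wnt10b on chromosome 15. Wnt6 and Wnt10a on chromosome 1 both had differences of 0.03. Wnt3a was equal on both arrays, whereas its neighbour Wnt9a had a difference of -0.13. All of these genes except Wnt9a were under the floor on both arrays, where 27.7% of all genes had exactly equal values.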
